A study of Rattus norvegicus with 23 samples.

Results

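The 6 nuclear receptor coactivator genes described here are 6 of the 30452 genes in the deposited table of rat kidney cells: Ncoa1, Ncoa2, Ncoa3, Ncoa5, Ncoa6 and Ncoa7. They were chosen by symbol, and Ncoa5 was the starting point because its level was known to fall at pH 6.0 in these samples. The pH values of Ncoa5 therefore chose the group and are given as a description without a test. All 6 members were among the 14777 genes that passed the filter on low counts, each with at least 82 counts in every sample. NRK-52E cells (NRKE in the labels, epithelial) and NRK-49F cells (NRKF in the labels, fibroblasts) are established lines, each derived from a single clone of normal rat kidney. They were deprived of serum for 24 h and then held for 48 h in medium of pH 7.4, the control, or in medium brought to pH 6.0 with HCl. Poly(A) RNA was sequenced from 6 samples of NRK-52E cells at each pH, from 6 samples of NRK-49F cells at pH 7.4 and from 5 at pH 6.0. The labels assign the samples to sample groups, 1 and 3 in the case of NRK-52E, 4 and 6 in that of NRK-49F cells, and do not say what separates them or whether samples of a condition were separate cultures, so that the p-values measure the spread between these samples only.

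Coactivators are recruited to DNA by nuclear receptors, the transcription factors that bind steroid and thyroid hormones, retinoids and other lipophilic ligands, and they pass the signal on to chromatin and to the polymerase. Ncoa1 (SRC-1), Ncoa2 (TIF2 or GRIP1) and Ncoa3 (AIB1 or SRC-3) form the SRC family of related proteins, which hold LXXLL motifs for the ligand-bound receptor and bring in the acetyltransferases Crebbp and Ep300 and the methyltransferase Carm1. The other members share the name rather than the sequence. Ncoa5 (CIA) is a coactivator that also binds receptors independently of their ligand-dependent activation domain, Ncoa6 (ASC-2 or PRIP) is a subunit of the histone methyltransferase complexes of Kmt2c and Kmt2d, and Ncoa7 (ERAP140) binds oestrogen receptor and carries a TLDc domain, which it has in common with proteins of the oxidative stress response.

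Total counts ranged from 16412564 to 34250535 per sample, and the levels below are FPM, fragment counts relative to the size of the scaled library (edgeR's CPM), which are not per length and are therefore not compared between genes. The markers did not follow the epithelial label of NRK-52E cells. Of 9 epithelial markers checked, 7 had an entry in the table, and Cdh1, Epcam, Krt18, Cldn4, Cldn7 and Esrp1 were at or near 0 in both lines. Krt8 was the exception and was the higher in NRK-49F cells, so that the summed level of these markers was 441 to 651 FPM at pH 7.4 and 195 to 260 FPM at pH 6.0 in NRK-52E samples, and 667 to 1207 FPM and 438 to 696 FPM in NRK-49F samples. Of 8 fibroblast markers, 7 had the higher mean in NRK-49F cells, Thy1 among them at or near 0 throughout, and Col3a1 had it in NRK-52E cells. Their summed level was 4897 to 8102 FPM at pH 7.4 and 1830 to 3110 FPM at pH 6.0 in NRK-52E samples, and 10248 to 13248 FPM at pH 7.4 and 7001 to 9462 FPM at pH 6.0 in NRK-49F samples. Both sums were lower at pH 6.0 in either line, without overlap except for the epithelial sum in NRK-49F cells, and their part in the results was not tested. Libraries also differed in the share of counts on 69 ribosomal protein genes, which ranged from 5.87% to 10.2%, and this share is set beside the results that move with it. In bulk RNA of a culture, fewer cells that express a gene and less RNA per cell cannot be told apart.

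The bases in front of the Ncoa5 gene are shown because Ncoa5 is the member whose level separated the pH values. RefSeq (assembly GRCr8) has a promoter entry for 4 of the 6 members, Ncoa1, Ncoa5, Ncoa6 and Ncoa7. The 250 bases before the start of Ncoa5 lie at chr3:174188863-174189112, on the minus strand. The protein-coding gene LOC120101785 overlaps the span of the Ncoa5 gene, and whether it reaches these bases was not examined. They are printed 5′ to 3′ in the direction of Ncoa5, with matches to the searched motifs in capitals.

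Ncoa5: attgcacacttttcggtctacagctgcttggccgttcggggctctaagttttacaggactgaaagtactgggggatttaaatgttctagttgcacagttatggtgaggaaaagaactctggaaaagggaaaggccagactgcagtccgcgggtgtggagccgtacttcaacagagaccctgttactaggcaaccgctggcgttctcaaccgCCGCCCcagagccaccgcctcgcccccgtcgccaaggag

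The motifs searched on both strands were the E-box CACGTG, the cAMP response element TGACGTCA, the amino acid response element TGATGNAA, the CCAAT box, the GC box GGGCGG, the ETS motif CCGGAAG and the receptor half-site AGGTCA. The Ncoa5 window held a GC box, which begins 39 bases before the start, and no other of these motifs. A GC box was present in 30.5% of 33469 windows of this length. The window of Ncoa1 held 7 matches to the GC box, and the 4 windows of Ncoa7 held 3, 1, 2 and 0. The Ncoa7 windows that held 3, 1 and 2 overlap one another, so that the same site can be counted more than once. The window of Ncoa6 held 1 CCAAT box, a motif found in 34% of windows. The receptor half-site, found in 14.1% of windows, was in none of the 7 windows of the members. A match describes the letters only.

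Ncoa5 was lower at pH 6.0 in every sample of both lines. In NRK-52E cells its level ran from 52.5 to 63.4 FPM with a median of 59.9 FPM at pH 7.4, and from 22 to 30.8 FPM with a median of 25.8 FPM at pH 6.0. In NRK-49F cells it ran from 44.4 to 51.3 FPM with a median of 49 FPM at pH 7.4, and it was 26.8, 26.1, 27.9, 31.6 and 29.6 FPM in the samples at pH 6.0. All samples at pH 6.0 were below the lowest sample at pH 7.4 of the same line, by a wide gap. The mean changed by -56.1% in NRK-52E and by -41.6% in NRK-49F cells. The fitted log2 fold change was -1.19 (SE 0.091) in NRK-52E and -0.78 (SE 0.095) in NRK-49F cells. Such a fall was not rare: a log2 fold change as low or lower was found for 15.4% of the tested genes in NRK-52E and for 9.42% in NRK-49F cells.

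**Figure D1:**
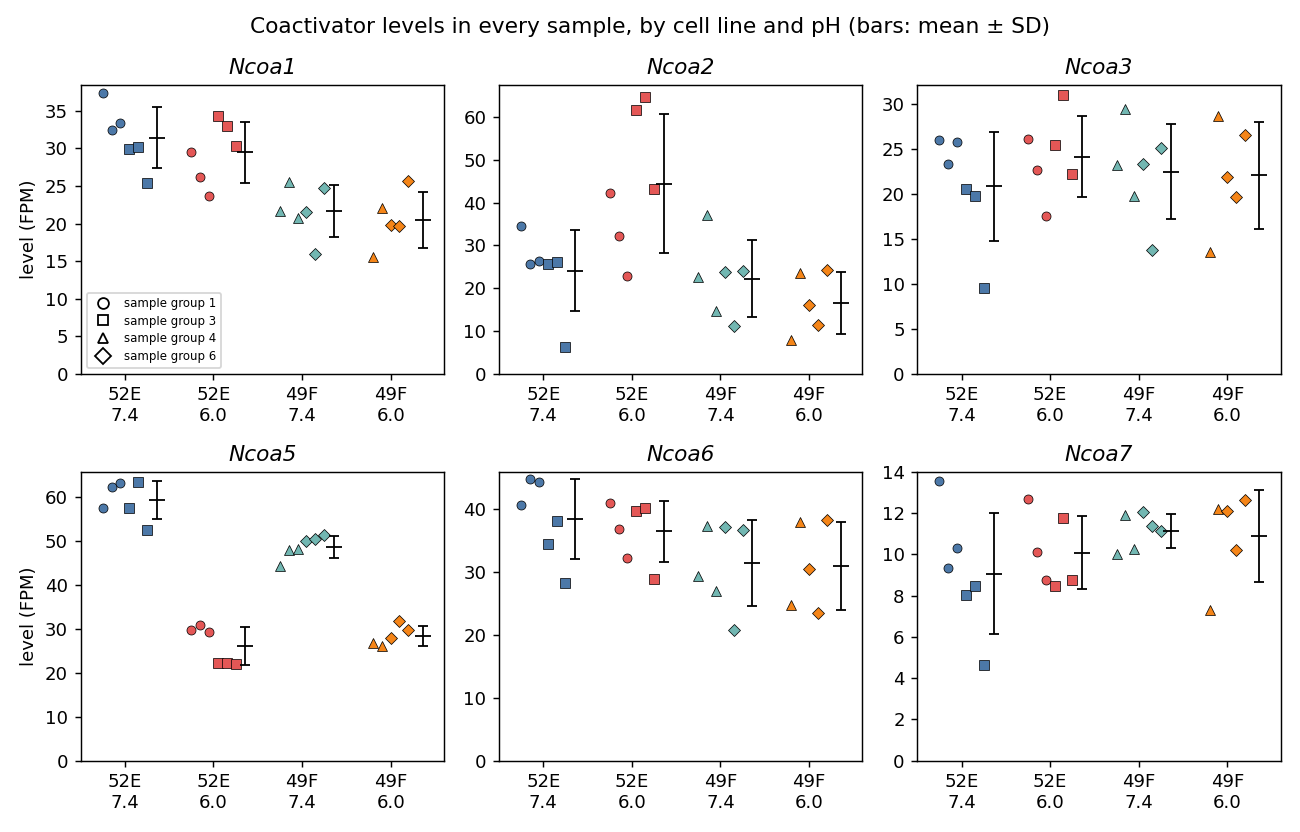
Level in FPM (y axis) of each coactivator in every sample of NRK-52E (52E) and NRK-49F (49F) cells at pH 7.4 and 6.0 (x axis), 1 panel per gene. Symbols give the sample group and bars the mean ± SD. The samples at pH 6.0 lie apart from those at pH 7.4 for Ncoa5 in both lines and overlap them in the other 5 panels.

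No other member separated the pH values in either line. Ncoa5 was 1 of 6 members whose ranges did not overlap, in NRK-52E and again in NRK-49F cells. Among all tested genes, the ranges did not overlap for 38.6% in NRK-52E cells (23.2% lower at pH 6.0) and for 20.6% in NRK-49F cells (10.2% lower at pH 6.0). Of the 5 members other than Ncoa5, 1 passed the test in NRK-52E cells, where 61.2% of all tested genes did (24.7% higher and 36.6% lower). In NRK-49F cells 0 of 5 passed by edgeR, 0 by DESeq2 and 0 at an unadjusted p under 0.05, where 28.9% of all tested genes passed by edgeR (14.5% higher and 14.4% lower).

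Ncoa1, the founding member of the SRC family, did not pass the test in either line. In NRK-52E cells it ran from 25.4 to 37.4 FPM (median 31.3) at pH 7.4 and from 23.6 to 34.4 FPM (median 29.9) at pH 6.0. In NRK-49F cells it ran from 15.9 to 25.5 FPM (median 21.6) at pH 7.4 and was 15.5, 22, 19.8, 19.6 and 25.6 FPM at pH 6.0. The ranges at the 2 pH values covered nearly the same span in each line. The log2 fold change was -0.10 (SE 0.12, adjusted p = 0.525 by edgeR) in NRK-52E and -0.08 (SE 0.13, adjusted p = 0.70) in NRK-49F cells.

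Ncoa2 was the member that rose, in NRK-52E cells. Its level there ran from 6.17 to 34.6 FPM (median 25.9) at pH 7.4 and from 22.9 to 64.6 FPM (median 42.7) at pH 6.0, with 4 of 6 samples at pH 6.0 above the highest sample at pH 7.4. In NRK-49F cells it ran from 11.2 to 37.1 FPM (median 23.3) at pH 7.4 and was 8.0, 23.5, 16.0, 11.3 and 24.3 FPM at pH 6.0, within or below the control range. The log2 fold change was 0.88 (SE 0.34, adjusted p = 0.0268 by edgeR) in NRK-52E and -0.43 (SE 0.36, adjusted p = 0.404) in NRK-49F cells. The difference between these changes was 1.30 on the log2 scale (SE 0.49, adjusted p = 0.0359). Ncoa2 was 1 of 5 members to pass this test, where 41.4% of all tested genes did. The call in NRK-52E cells was lost when a single sample of sample group 3 at pH 6.0, A036 (0.76, adjusted p = 0.0652) or A037 (0.74, adjusted p = 0.0701), was left out, and the difference between the lines was lost when any of A036, A037, A040, A042, A054 and A055 was left out (adjusted p from 0.0548 to 0.0753) and with the sample group as a block (1.25, adjusted p = 0.0523).

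Ncoa3, the third SRC coactivator, did not pass the test in either line. It ran from 9.57 to 26 FPM (median 21.9) at pH 7.4 and from 17.6 to 31.0 FPM (median 24.0) at pH 6.0 in NRK-52E cells. Its level in NRK-49F cells ran from 13.8 to 29.4 FPM (median 23.2) at pH 7.4 and was 13.5, 28.7, 21.8, 19.6 and 26.5 FPM at pH 6.0. Its log2 fold change was 0.21 (SE 0.21, adjusted p = 0.404 by edgeR) in NRK-52E and -0.03 (SE 0.22, adjusted p = 0.946) in NRK-49F cells.

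Ncoa6, the subunit of the Kmt2c and Kmt2d complexes, ran from 28.2 to 44.7 FPM (median 39.3) at pH 7.4 and from 28.8 to 40.9 FPM (median 38.2) at pH 6.0 in NRK-52E cells. The NRK-49F samples ran from 20.8 to 37.3 FPM (median 33) at pH 7.4 and were at 24.8, 37.9, 30.5, 23.5 and 38.2 FPM at pH 6.0. The samples at pH 6.0 were spread over the control range in both lines. The log2 fold change was -0.08 (SE 0.15, adjusted p = 0.679 by edgeR) in NRK-52E and -0.02 (SE 0.16, adjusted p = 0.946) in NRK-49F cells.

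Ncoa7, the TLDc protein, had the lowest counts of the group, 82 to 485 per sample. It ran from 4.64 to 13.6 FPM (median 8.91) at pH 7.4 and from 8.49 to 12.7 FPM (median 9.44) at pH 6.0 in NRK-52E cells. NRK-49F samples ran from 10.0 to 12.1 FPM (median 11.3) at pH 7.4 and were at 7.29, 12.2, 12.1, 10.2 and 12.7 FPM at pH 6.0. All samples at pH 6.0 of NRK-52E cells lay within the control range, and of those of NRK-49F cells 1 lay below and 3 lay just above it. The log2 fold change was 0.15 (SE 0.18, adjusted p = 0.502 by edgeR) in NRK-52E and -0.03 (SE 0.19, adjusted p = 0.922) in NRK-49F cells.

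The intervals show how large a fall of the other members these samples leave room for. In NRK-52E cells the 95% interval of the log2 fold change reached down to -0.35 for Ncoa1, -0.22 for Ncoa3, -0.39 for Ncoa6 and -0.23 for Ncoa7, and for Ncoa2 it ran from 0.18 to 1.57. None of these intervals reached the value of Ncoa5. The interval of Ncoa5 itself ran from -1.37 to -0.998 in NRK-52E and from -0.97 to -0.58 in NRK-49F cells. As Ncoa5 was chosen for its fall, its value serves here as a mark of size, and the comparison is a description without a test. In NRK-49F cells the lower ends were -0.35 for Ncoa1, -0.48 for Ncoa3, -0.35 for Ncoa6 and -0.42 for Ncoa7, again short of the value of Ncoa5. For Ncoa2 the interval in NRK-49F cells ran from -1.16 to 0.31 and took in the value of Ncoa5, so that a fall of the same size was not distinguishable there. The median log2 fold change of all tested genes was -0.12 in NRK-52E and 0.00088 in NRK-49F cells. When each line was filtered, scaled and fitted alone, the median in NRK-52E cells became -0.0023 and the value of Ncoa5 was -1.10.

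**Figure D2:**
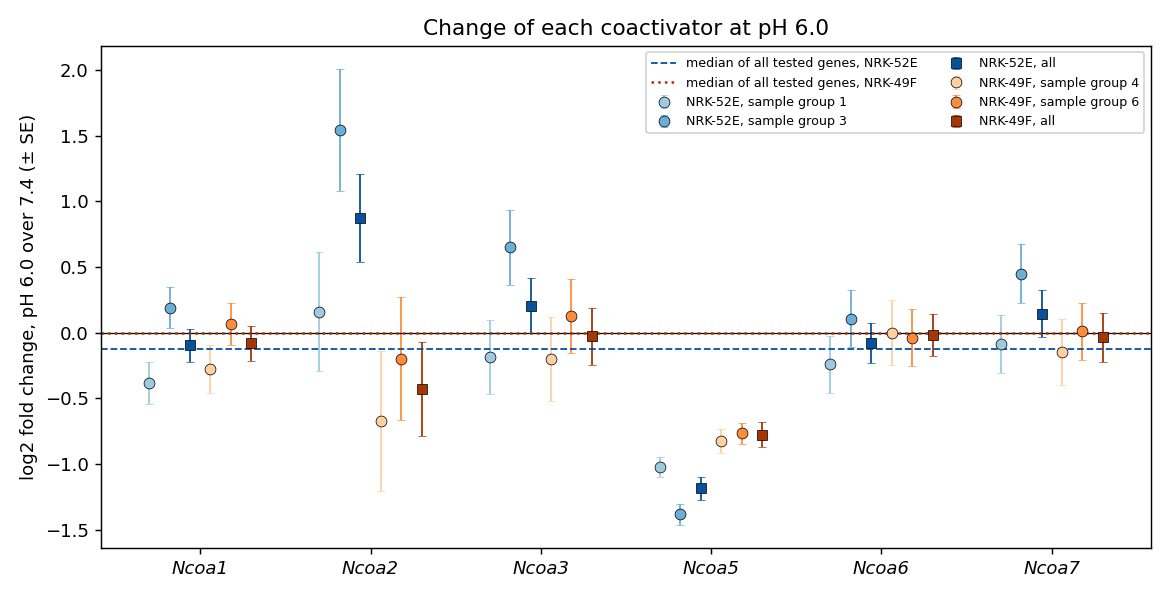
Log2 fold change from pH 7.4 to pH 6.0 (y axis) of each coactivator (x axis) with its SE, fitted over all samples of a line (squares) and within each sample group (circles). Dashed and dotted lines give the median of all tested genes in NRK-52E (-0.12) and NRK-49F cells (0.00088). Ncoa5 lies between -0.77 and -1.38 in every fit. In the fits over all samples, Ncoa2 in NRK-52E cells is the only other coactivator that passed the test. Within sample group 3, Ncoa3 (0.65) and Ncoa7 (0.45) also lie above the NRK-52E median without passing, and within group 1 Ncoa1 (-0.38) lies below it.

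Set against each other member within the same sample, Ncoa5 was relatively lower at pH 6.0, whichever member served as the reference. In NRK-52E cells the mean log2 ratio of Ncoa5 to Ncoa1 was 0.92 ± 0.16 (SD, n = 6) at pH 7.4 and -0.18 ± 0.42 (SD, n = 6) at pH 6.0, a change of -1.10. The change was -1.13 against Ncoa6, -1.41 against Ncoa7, -1.46 against Ncoa3 and -2.16 against Ncoa2, and in none of the 5 ratios did the samples at pH 6.0 overlap those at pH 7.4. In NRK-49F cells the change was -0.70 against Ncoa1, -0.72 against Ncoa7, -0.74 against Ncoa3, -0.76 against Ncoa6 and -0.34 against Ncoa2. The ratios to Ncoa1 and Ncoa7 did not overlap between the pH values there, and those to Ncoa2, Ncoa3 and Ncoa6 did. As Ncoa5 was chosen for its fall, these ratios are a description and carry no test.

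**Figure D3:**
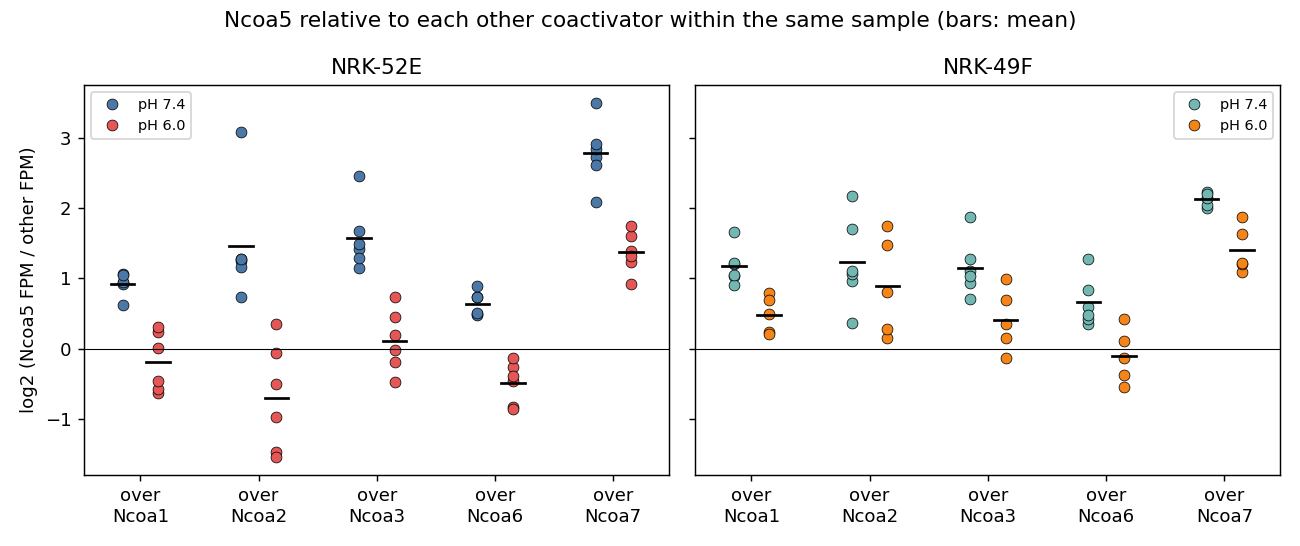
Log2 ratio of the Ncoa5 level to that of each other coactivator in the same sample (y axis), at pH 7.4 and 6.0, with NRK-52E cells on the left and NRK-49F cells on the right. Short bars are means. The ratios fall in all 10 sets, without overlap in 5 of 5 sets in NRK-52E and in 2 of 5 in NRK-49F cells.

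The fall of Ncoa5 was deeper in sample group 3 than in sample group 1 of NRK-52E cells, which is described without a test. In sample group 1 Ncoa5 was at 57.4, 62.2 and 63.0 FPM at pH 7.4 and at 29.8, 30.8 and 29.3 FPM at pH 6.0, and in sample group 3 it was at 57.6, 63.4 and 52.5 FPM and at 22.3, 22.3 and 22 FPM. At pH 7.4 the groups overlapped, and at pH 6.0 every sample of group 3 was below every sample of group 1. The log2 fold change was -1.02 (SE 0.079) in group 1 and -1.38 (SE 0.081) in group 3, a difference of -0.36 (SE 0.11), which 24.4% of the tested genes equalled or passed in the same direction. In NRK-49F cells the values of groups 4 and 6, -0.82 (SE 0.091) and -0.77 (SE 0.079), differed by 0.06 (SE 0.12).

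Ncoa2 also had unequal values in the sample groups of NRK-52E cells, with the larger change again in group 3. In group 1 it was at 34.6, 25.6 and 26.5 FPM at pH 7.4 and at 42.2, 32.2 and 22.9 FPM at pH 6.0, and the ranges overlapped. In group 3 it was at 25.7, 26.1 and 6.17 FPM at pH 7.4 and at 61.8, 64.6 and 43.2 FPM at pH 6.0, without overlap. The log2 fold change was 0.16 (SE 0.45, adjusted p = 0.801 by edgeR) in group 1 and 1.54 (SE 0.47, adjusted p = 0.00793) in group 3. The difference of 1.38 (SE 0.65) did not pass the test (adjusted p = 0.195 by edgeR). Ncoa1 passed the test in group 1 (log2 fold change -0.38, SE 0.16, adjusted p = 0.0496 by edgeR) and not in group 3 (0.19, SE 0.16, adjusted p = 0.320), and the difference of 0.57 (SE 0.22) did not pass either (adjusted p = 0.111). The change in group 3 minus that in group 1 was above 0 as well for Ncoa3 (0.84, SE 0.40), Ncoa6 (0.35, SE 0.31) and Ncoa7 (0.54, SE 0.31). Between groups 1 and 3, 0 of the 5 members other than Ncoa5 differed in their pH change by edgeR and 0 by DESeq2. Among all tested genes 10.6% passed by edgeR. An unadjusted p under 0.05 was found for 2 of the 5 members and for 3591 of the 14777 tested genes. Between groups 4 and 6, 0 members and 0% of all tested genes passed by edgeR, while 596 genes (4.03%) had an unadjusted p under 0.05 and DESeq2 called 10 genes, none of them a member.

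The lines differed in the basal level of Ncoa1 and Ncoa5. At pH 7.4 Ncoa1 was higher in NRK-52E cells, 31.5 ± 4.00 FPM against 21.7 ± 3.40 FPM (SD, n = 6 each), with a log2 difference of 0.54 (SE 0.13, adjusted p = 0.000540 by edgeR). The level of Ncoa5 at pH 7.4 was likewise higher in NRK-52E cells, 59.3 ± 4.28 FPM against 48.7 ± 2.49 FPM (SD, n = 6 each), with a log2 difference of 0.29 (SE 0.089, adjusted p = 0.00652 by edgeR) and no overlap between the lines. These were 2 of 6 members, where 68.8% of all tested genes passed. At pH 6.0 Ncoa1 was again higher in NRK-52E cells (0.52, SE 0.13, adjusted p = 0.00107 by edgeR), Ncoa2 was higher there as well (1.42, SE 0.36, adjusted p = 0.00112), and 2 of 6 members passed, where 75.5% of all tested genes did. The levels of Ncoa5 at pH 6.0, 26.1 ± 4.29 FPM in NRK-52E cells (SD, n = 6) and 28.4 ± 2.24 FPM in NRK-49F cells (SD, n = 5), did not differ beyond their spread (log2 difference -0.12, SE 0.095, adjusted p = 0.241 by edgeR) in the fit that pools the sample groups. The 3 samples of group 3, at 22 to 22.3 FPM, were below every NRK-49F sample at pH 6.0, and the 3 samples of group 1 were within the range of these. Ordered by mean level, Ncoa5 thus ran from NRK-52E at pH 7.4 through NRK-49F at pH 7.4 to NRK-49F and NRK-52E at pH 6.0. In that fit the lines passed the test at pH 7.4 and not at pH 6.0. This pair of outcomes is no test of whether the pH change of Ncoa5 differs between the lines, and none is given. The step between the pH values is described without a test. Ncoa1 was ordered by line, Ncoa2 had its highest level in NRK-52E cells at pH 6.0, and for Ncoa3, Ncoa6 and Ncoa7 neither pH nor line passed a test.

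Within a condition Ncoa5 had the smallest ratio of its highest to its lowest sample, and the lowest values of the others often fell in the same libraries. The highest sample was 1.16 to 1.4 times the lowest for Ncoa5 over the 4 conditions, 1.46 to 1.65 times for Ncoa1, 1.42 to 1.80 times for Ncoa6, 1.21 to 2.92 times for Ncoa7, 1.77 to 2.72 times for Ncoa3 and 2.82 to 5.61 times for Ncoa2. In NRK-52E cells at pH 6.0, where the sample groups stood apart for Ncoa5, its ratio of 1.4 was close to the 1.42 of Ncoa6, and its coefficient of variation, 16.5%, was above the 13.8% of Ncoa1 and the 13.4% of Ncoa6. In the other 3 conditions its coefficient of variation was the lowest of the 6, 5.11% to 7.90%. The libraries with the highest ribosomal protein share of their condition were A035 (8.60%), A026 (7.55%), A052 (8.80%) and A042 (10.2%). These libraries held the lowest value of the condition for 5, 3, 4 and 4 of the 5 other members, 16 of 20 cases in all, while for Ncoa5 this was so in 1 of 4 conditions. The count was made for the members only. Whether these libraries are as often the lowest for tested genes at large was not examined, so it is not shown to be particular to the members. With the ribosomal protein share as a covariate, a setting added after the values were seen, Ncoa2 in NRK-52E cells was at 1.08 (adjusted p = 9.54e-06 by edgeR), Ncoa3 in NRK-52E cells at 0.32 (adjusted p = 0.0104) and Ncoa5 at -1.18 and -0.77 in the lines. Without those 4 libraries Ncoa2 was at 0.93 (adjusted p = 0.00137 by edgeR), Ncoa3 at 0.25 (adjusted p = 0.0897) and Ncoa5 at -1.15 and -0.76. Why the share differs between libraries was not tested.

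**Figure D4:**
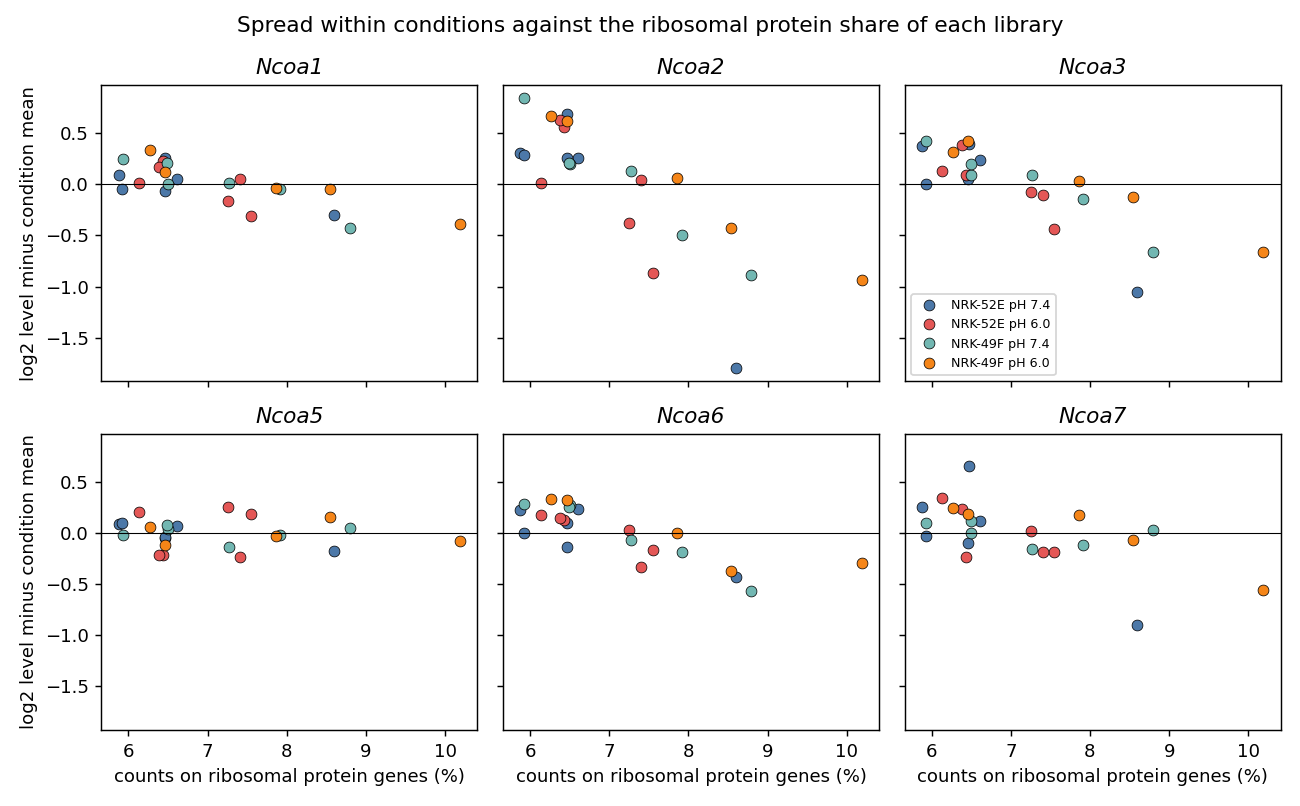
Deviation of each sample from the mean log2 level of its condition (y axis) against the share of its counts on ribosomal protein genes in percent (x axis), 1 panel per coactivator, coloured by condition. Samples with a high share lie low for Ncoa1, Ncoa2, Ncoa3 and Ncoa6, and for Ncoa7 in A035 and A042, while the points of Ncoa5 lie between -0.23 and 0.26, with both ends held by NRK-52E samples at pH 6.0.

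The genes whose profile over the 23 samples was most like that of Ncoa5 were not other members. Likeness was the root mean square difference of log2(FPM + 1) values, each gene minus its own mean, over the 10847 genes whose mean reached 5 FPM. The closest was Dgcr8 (0.129), a subunit of the microprocessor of primary microRNAs, with log2 fold changes of -1.05 in NRK-52E and -0.60 in NRK-49F cells. Nfyc (0.139), a subunit of the CCAAT-binding factor NF-Y, had -1.34 and -0.66, and Trim32 (0.168), a ubiquitin ligase, had -1.03 and -0.44. Lrfn1 (0.175), a synaptic adhesion molecule, had -1.56 and -0.77, and Gpsm1 (0.179), a modulator of G protein signalling, had -0.93 and -0.41. The other members were at ranks 2849 (Ncoa6), 3186 (Ncoa1), 4089 (Ncoa7), 5359 (Ncoa3) and 9093 (Ncoa2). The profile of Ncoa5 holds the fall with pH for which Ncoa5 was chosen. Genes close to it by this measure therefore fall in both lines by construction, and members without such a fall rank further away. The ranks and fold changes are a description, carry no test and add no separate evidence that the members differ from Ncoa5.

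The wider machinery was followed in 6 lists of 93 symbols, of which 91 had an entry and 71 were tested. In NRK-52E cells 16 of these 71 rose, 26 fell and 29 did not pass, which is 59.2% called against 61.2% of all tested genes, with a median log2 fold change of -0.12 against -0.12. In NRK-49F cells 5 rose, 9 fell and 57 did not pass, which is 19.7% called against 28.9%, with a median of -0.04 against 0.00088.

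Of 10 partners of the SRC family, 2 rose and 4 fell in NRK-52E cells, and 1 rose and 2 fell in NRK-49F cells. Carm1, the arginine methyltransferase, rose in NRK-52E cells (log2 fold change 0.77, SE 0.055, adjusted p = 3.48e-11 by edgeR). Kat2a, a histone acetyltransferase, fell in NRK-52E cells (-0.65, SE 0.10, adjusted p = 5.88e-06) and rose in NRK-49F cells (0.48, SE 0.10, adjusted p = 0.00104). Kat5 fell in NRK-52E cells (-0.67, SE 0.086, adjusted p = 3.74e-07), and Kat2b was the partner with the largest fall in NRK-49F cells (-0.69, SE 0.11, adjusted p = 5.88e-05). Of 7 tested subunits of the complexes that hold Ncoa6, 2 rose and 2 fell in NRK-52E cells, with Rbbp5 at 0.45 (SE 0.077, adjusted p = 2.23e-05) and Paxip1 at -0.80 (SE 0.13, adjusted p = 1.48e-05), and 0 passed in NRK-49F cells by edgeR (1 by DESeq2, and 1 at an unadjusted p under 0.05).

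Of 11 other coactivators, 1 rose and 1 fell in each line. Pprc1, a relative of the PGC-1 coactivators, rose in NRK-52E cells (0.82, SE 0.10, adjusted p = 2.49e-07 by edgeR) and fell in NRK-49F cells (-0.32, SE 0.11, adjusted p = 0.0259). Ascc1 and Ascc2, subunits of the ASC-1 complex, fell in NRK-52E cells (-0.60, SE 0.15, adjusted p = 0.00109) and rose in NRK-49F cells (0.33, SE 0.089, adjusted p = 0.00712), respectively. The counterpart Ncoa4, which is no member, had 0 counts in all samples at 1 entry of the table and 2 to 30 counts at the other. Of 9 corepressors, 2 rose and 4 fell in NRK-52E and 0 rose and 3 fell in NRK-49F cells. Ncor1, a corepressor of unliganded receptors, rose in NRK-52E cells (0.85, SE 0.14, adjusted p = 1.51e-05). Lcor, a ligand-dependent corepressor, fell in NRK-52E cells (-1.18, SE 0.30, adjusted p = 0.00158).

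Of 48 nuclear receptors, 30 were tested. In NRK-52E cells 8 rose and 13 fell, and in NRK-49F cells 3 rose and 3 fell. Nr4a2, an orphan receptor of the immediate early type, went from 2.81 to 10.0 FPM in NRK-52E cells (1.83, SE 0.18, adjusted p = 8.82e-09 by edgeR), and Nr2f1, an orphan receptor also known as COUP-TFI, went from 3.63 to 0.475 FPM (-2.92, SE 0.22, adjusted p = 9.08e-11). Nr3c2, the mineralocorticoid receptor, went from 16.3 to 33.2 FPM in NRK-49F cells (1.03, SE 0.23, adjusted p = 0.00173), and Thrb, a thyroid hormone receptor, fell from 17.1 to 6.97 FPM in these cells (-1.30, SE 0.19, adjusted p = 9.23e-06). Of the 4 tested TLDc relatives of Ncoa7, 1 rose and 2 fell in NRK-52E cells, among them Meak7 (-0.54, SE 0.098, adjusted p = 4.80e-05), and 0 passed in NRK-49F cells by edgeR (0 by DESeq2, and 1 at an unadjusted p under 0.05).

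**Figure D5:**
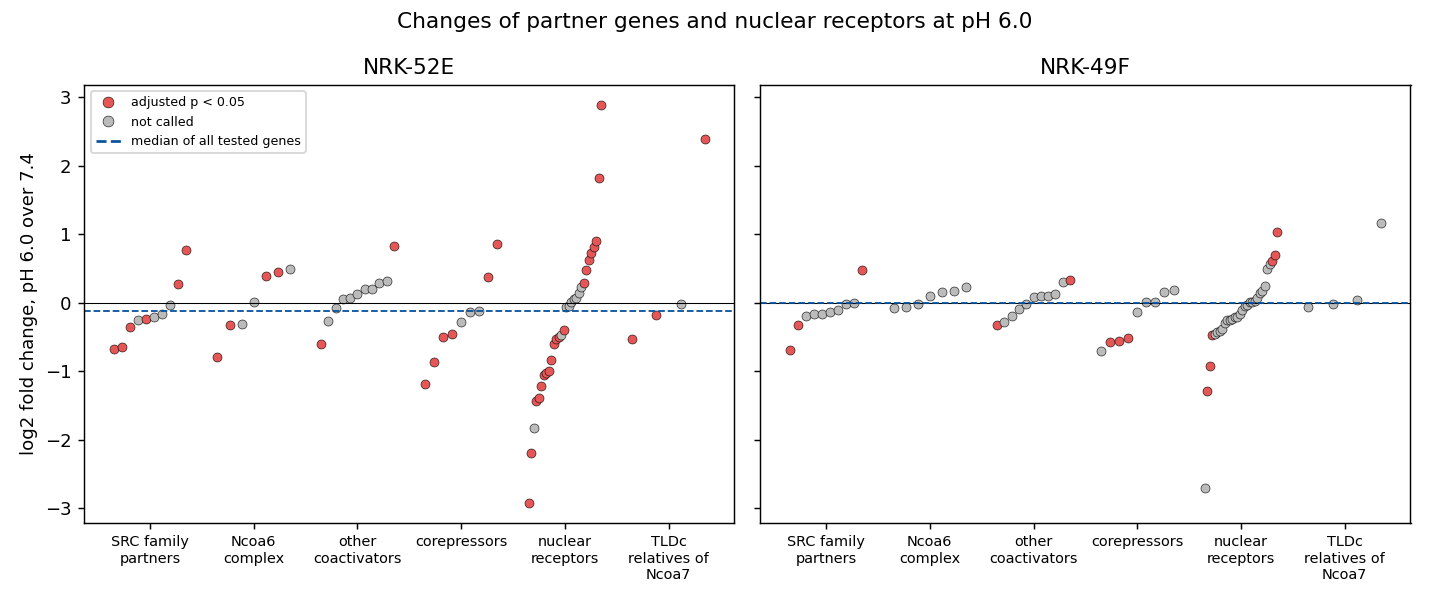
Log2 fold change from pH 7.4 to pH 6.0 (y axis) of every tested gene of the 6 lists (x axis), sorted within its list, in NRK-52E cells (left) and NRK-49F cells (right). Red points passed an adjusted p under 0.05 and the dashed line is the median of all tested genes. Rises and falls are mixed within each list in NRK-52E cells (16 and 26 of 71), and fewer genes passed in NRK-49F cells (5 and 9 of 71).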

How the data were processed

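Poly(A) RNA of NRK-52E and NRK-49F cells was sequenced by the authors in read pairs. Per the paper's methods and the labels, the authors mapped the reads with HISAT2 (version 2.1.0 per the submitters' processing notes) and counted them with featureCounts on exons of Ensembl genes, with multi-mapping reads included. The methods name the genome rn7 and the processing notes rn6. The counting options that the methods list include none for strand. In RefSeq the gene spans of Ncoa5 and LOC120101785, of Ncoa2 and Mir378b, and of Ncoa1 and Trnas-aga24 overlap. Whether their exons overlap in the annotation that was counted, and whether any reads were affected, was not examined. The deposited values are raw counts per gene. Of 36 per-sample columns, 23 were used and 13, which match no label, were not. Levels are FPM, taken with the cpm function of edgeR on TMM-scaled libraries, and total counts per sample limit their precision.

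Samples were grouped by cell line, pH and sample group as labelled. Counts of all 23 samples were fitted in 4 conditions (8 for the sample groups) by edgeR 4.0.16 with its quasi-likelihood test in R 4.3.3, after filterByExpr (minimum count 10, minimum total 15) and TMM scaling, and p-values were adjusted by Benjamini-Hochberg over all 14777 genes, with a threshold of 0.05. The SE is the absolute log2 fold change divided by the square root of F, and intervals are at 95%. The steps were also run on simulated counts that held no effect of sample group or ribosomal protein share. That run was a check of the code and says nothing on such effects. Alternatives were RLE scaling, no filter beyond 1 count, DESeq2 1.42.0, each line alone, the sample group as a block, each sample group alone and each sample left out.

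The members, lists and tests were chosen with earlier results of these data known. Genes are named by a rule: all 6 members, in each list and line the called gene with the largest rise and fall and a mean of at least 1 FPM, the 5 genes most like Ncoa5, and the markers. Of the listed symbols, Tldc1 is an older symbol of Meak7, and an entry with a numbered suffix stood in where it held more counts. Of the genes that the rule takes from the lists, 1 is counted with its list and not reported here. Plots came from matplotlib 3.10.9 under Python 3.11.15.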

Additional observations from a re-analysis of the deposited data

Results flagged for a closer look

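Among 44 sets of samples checked by Dixon's test at the 95% level, 3 held a sample far from the others, and at this level chance alone marks about 1 set in 20. Ncoa2 was at 6.17 FPM in A035 of NRK-52E cells at pH 7.4, where the nearest sample was at 25.6 FPM. In the same library the log2 ratio of Ncoa5 to Ncoa2 was 3.09, against 1.28 in the nearest sample. A035 is also the library of the highest ribosomal protein share in its condition, 8.60%. The log2 ratio of Ncoa5 to Ncoa1 was 0.62 in A021, where the nearest sample was at 0.92.

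The pH change differed between the lines by a test of the difference itself (edgeR, adjusted over all genes, change in NRK-52E minus change in NRK-49F on the log2 scale) for Ncoa2 by 1.30 (adjusted p = 0.0359). Of the 71 tested genes of the 6 lists of partners, 27 passed (38%, against 41.4% of all tested genes), 13 with the higher and 14 with the lower value in NRK-52E cells. Among those of the 27 that the text names, it was higher in NRK-52E cells for Carm1 (0.77), Rbbp5 (0.47), Pprc1 (1.15), Ncor1 (0.67) and Nr4a2 (1.86). It was lower there for Kat5 (-0.51), Kat2a (-1.12), Paxip1 (-1.02), Ascc1 (-0.58), Nr2f1 (-2.68) and Meak7 (-0.48). For Nr3c2 the difference was -3.23, with mean levels of 0.282 and 0.0679 FPM in NRK-52E cells at pH 7.4 and 6.0, so near 0 counts that the fitted value depends on the prior count.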

How the results depend on the processing

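Of 1835 values recomputed under another setting, 1801 kept their side of the threshold, or roughly their size where no test applied, and 0 reversed a call. Most of the 1835 came from fits that left out a single sample and kept all others. Many belong to members that were not called in the main fit. Both favour an unchanged outcome, so that the number kept is no measure of robustness. Size was judged with a tolerance. A ratio or a value of Ncoa5 could move by less than its SD within conditions. For counts the tolerance was wide: the genes called in NRK-49F cells, 4270 in the main fit and 5470 with the ribosomal protein share as a covariate, are among the 1801. Among the 1801 were 57 values of members other than Ncoa5 that changed sign without passing under either setting, 20 of Ncoa6, 16 of Ncoa1, 11 of Ncoa3, 6 of Ncoa7 and 4 of Ncoa2, at most 0.30 in size. DESeq2 called 10 genes for the difference between sample groups 4 and 6, where edgeR called 0, and leaving out single samples gave 0 to 11 (11 without A043 of NRK-49F cells at pH 6.0). With the sample group as a block, the difference of the pH change between the lines was passed by 0 of 5 members, with Ncoa2 at 1.25 (adjusted p = 0.0523 by edgeR), and leaving out single samples gave 0 to 1 members for this difference and 0 to 1 for the pH change in NRK-52E cells. In sample group 6 alone 5 of 71 tested partner genes fell in NRK-49F cells, where 1607 of 14777 tested genes did. The ribosomal protein share was also used as a covariate, a setting chosen after seeing the data. Then 2 of 5 members passed in NRK-52E cells, where 10069 of 14777 tested genes did. In NRK-49F cells 12 partner genes rose under this setting, where 2645 of all tested genes did. Between the lines at pH 7.4, 5 of 6 members differed, where 10888 of all tested genes did. The added ones were Ncoa3 (-0.29, adjusted p = 0.0207 by edgeR), Ncoa6 (0.19, adjusted p = 0.0389) and Ncoa7 (-0.42, adjusted p = 0.0146). The cause of these shifts was not tested. At pH 7.4 Ncoa7 also passed without A021 (-0.44, adjusted p = 0.0268) and Ncoa6 without A035 (0.37, adjusted p = 0.0341). With any single sample left out, the change of Ncoa5 was -1.24 to -1.14 in NRK-52E and -0.82 to -0.75 in NRK-49F cells. No paired analysis was possible because the sample codes are not shared between pH values or lines. With 82 to 485 counts per sample, Ncoa7 is the member whose values depth limits most.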
